A study of Mus musculus with 28 samples.

Results

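The Macrod2 locus was taken as chromosome 2 from 140200001 to 142250000 of the mouse build mm9, a span of 2.05 Mb around the gene Macrod2. It holds 10250 of the 13274547 bins of 200 bp into which the genome was divided. The span was chosen by the deposited chromatin states themselves. It contains the 1 Mb window with the largest loss of state U2 between NT and GS in KO cells. The rule called the change in WT little, though WT cells also lost U2 in that window. Their GS minus NT of -3.90 percentage points was the 196th lowest of 2644 windows. The differences in U2 between GS and NT in both genotypes are therefore the values that chose the locus, and they are given as a description with no test.

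ChIP-seq was done on fibroblasts from 14.5 day mouse embryos (MEFs) of strain 129s2, at passages 3 to 4. Cells were SirT7-/- (KO), lacking the nuclear sirtuin SIRT7, or wild type (WT), and each genotype was GS or NT. The labels expand neither abbreviation, and the title of the series concerns glucose starvation. KO-GS, KO-NT, WT-GS and WT-NT each have 1 segmentation, which the labels tie to 2 H3K27me3 and 2 mH2A1 (macroH2A1.1) libraries. SIRT7 was precipitated from WT cells alone, with 2 libraries and 1 peak list per treatment. Each deposited segmentation or list pools its replicates, so no value here has a replicate error, and the depth behind it is unknown. Whether replicates came from separate embryos is not stated in the labels, and the files hold no expression values with which the cell type or the loss of SIRT7 could be checked.

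Macrod2 encodes a macrodomain protein that removes mono-ADP-ribose from modified proteins. The macrodomain is the same fold that lets macroH2A1.1, the histone variant precipitated here, bind ADP-ribose, while the partner mark H3K27me3 is laid down by Polycomb repressive complex 2. In humans MACROD2 is a very long gene at a fragile genomic region that is often deleted in colorectal tumours. The segmentations call 4 states, U1 to U4. The sources used here give neither what each state stands for nor whether it was defined alike in all 4 segmentations.

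In the RefSeq annotation of a later build (GRCm38.p6), 6 genes lie within Macrod2. Flrt3, which encodes a transmembrane protein with leucine-rich repeats that acts in cell adhesion and FGF signalling, is the only protein-coding gene among them. The others are the non-coding genes Gm23846, Gm39948 and Gm25583 and the pseudogenes Zcchc9-ps and Fau-ps1. The nearest protein-coding neighbours outside are Sel1l2 before and Kif16b after Macrod2. Annotated positions belong to GRCm38.p6 and were not moved to mm9, so no bin below is assigned to a promoter or exon. The starts of the 2 protein-coding genes are shown because chromatin marked by Polycomb is known to favour DNA rich in CG. The sequences, credited to RefSeq, run 5′ to 3′ from 250 bases before to 50 after the start, with each CG in capitals. CG reads the same on both strands and was present in 94.6% of 32851 promoters of that length. The Macrod2 sequence lies at chr2:140395180-140395479 (GRCm38.p6, plus strand) and that of Flrt3 at chr2:140671427-140671726 (GRCm38.p6, minus strand). Macrod2 has 2 listed promoters, of which the one with the lower start position is shown.
Macrod2: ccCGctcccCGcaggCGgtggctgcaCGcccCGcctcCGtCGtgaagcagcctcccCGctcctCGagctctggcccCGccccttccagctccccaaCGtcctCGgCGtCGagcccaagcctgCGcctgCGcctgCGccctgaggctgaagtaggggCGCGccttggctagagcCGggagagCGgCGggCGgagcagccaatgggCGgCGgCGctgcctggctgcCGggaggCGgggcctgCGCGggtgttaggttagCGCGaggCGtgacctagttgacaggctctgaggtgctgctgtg
Flrt3: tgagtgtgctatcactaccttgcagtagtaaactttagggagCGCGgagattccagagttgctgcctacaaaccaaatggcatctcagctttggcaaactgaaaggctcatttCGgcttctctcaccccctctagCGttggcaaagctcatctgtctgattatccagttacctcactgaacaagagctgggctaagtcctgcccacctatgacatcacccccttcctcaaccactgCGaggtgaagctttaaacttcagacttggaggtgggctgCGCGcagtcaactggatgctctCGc
The Macrod2 promoter shown held 33 CG, a number that 8.56% of all promoters reached, and was 73.7% G and C. The Flrt3 promoter held 8 CG, close to the median of 7 over all promoters, and was 51.3% G and C.

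U2 covered a large share of the locus in every segmentation, and KO-GS cells had the least. U2 covered 749.8 kb in KO-GS, 1070.2 kb in KO-NT, 1134.4 kb in WT-GS and 1113.4 kb in WT-NT. As shares of the locus these are 36.6% in KO-GS, 52.2% in KO-NT, 55.3% in WT-GS and 54.3% in WT-NT. KO-GS therefore stood alone at the low end, and the other 3 lay close together. U1 made up almost all of the remainder, with 63.3% in KO-GS, 47.3% in KO-NT, 44.5% in WT-GS and 45.5% in WT-NT. U3 and U4 were nearly absent, between 0.0390 and 0.420% of the locus for U3 and between 0.0683 and 0.0976% for U4.

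The difference in U2, GS minus NT, was -15.6 percentage points for KO and 1.02 for WT, the values on which the locus was chosen. KO minus WT was -18.8 points in GS and -2.11 in NT. In percentage points, differences in the sequence around the locus were smaller, but U2 was also scarcer there. In the 2 Mb before it, U2 covered 8.82% in KO-GS, 13.4% in KO-NT, 17.8% in WT-GS and 16.8% in WT-NT. In the 2 Mb after it, it covered 15.97% in KO-GS, 14.6% in KO-NT, 18.1% in WT-GS and 17.96% in WT-NT. The KO difference was thus -4.62 points before and 1.37 points after the locus. Relative to the U2 of KO-NT, the net loss before the locus was no smaller than that within it. KO-GS was the lowest segmentation there too. Over the rest of chromosome 2 it was 0.0124 points in KO and 0.00835 in WT, and over the rest of the genome 0.528 points in KO and 0.249 in WT. The rest of chromosome 2 had 17.6% U2 in KO-GS and KO-NT and 21.1% in WT-GS and WT-NT.

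**Figure D1:**
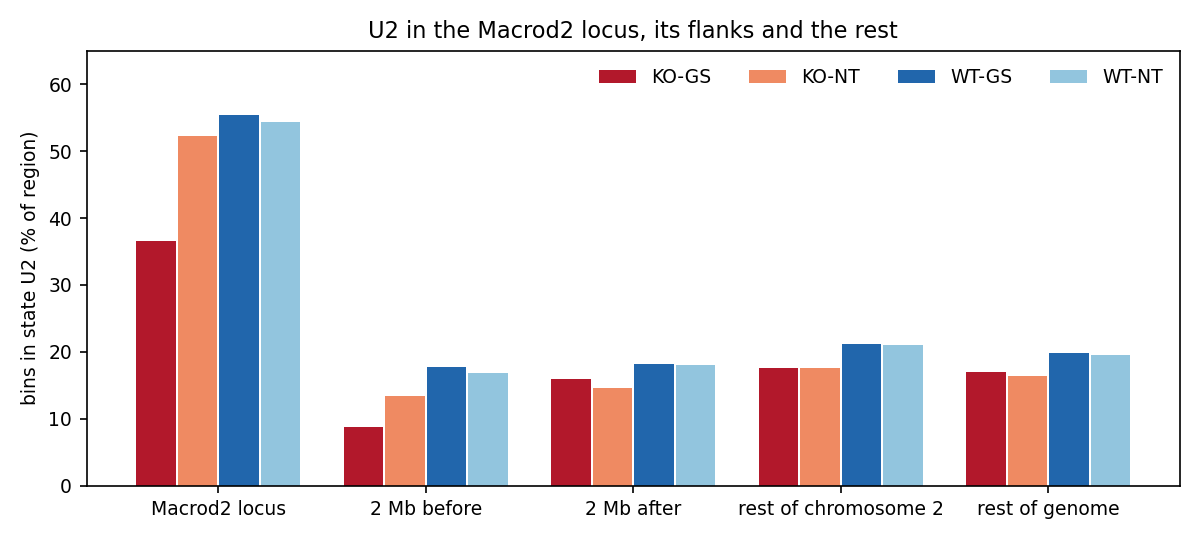
Share of 200 bp bins in state U2 (percent, y axis from 0) in the Macrod2 locus, the 2 Mb on each side, the rest of chromosome 2 and the rest of the genome, 1 bar per segmentation with no error since replicates were pooled. In the locus KO-GS (36.6%) is the lowest of the 4 bars, and the other 3 lie between 52.2 and 55.3%.

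**Figure D2:**
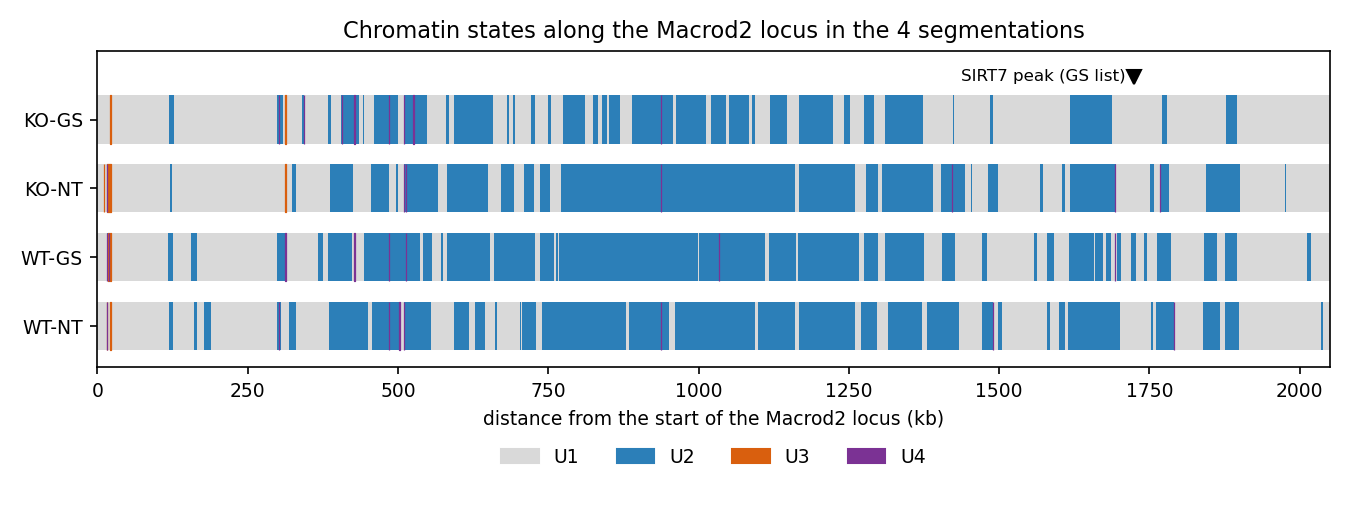
State of every bin along the locus (x axis, kb from its start), 1 row per segmentation, with the SIRT7 peak of the GS list as a triangle. U2 fills most of the middle of the locus in KO-NT, WT-GS and WT-NT and less of it in KO-GS. Gaps break it in all 4 segmentations. Over the locus it lies in 44 segments in KO-GS, 30 in KO-NT, 41 in WT-GS and 38 in WT-NT. U3 and U4 segments are outlined so that single bins can be seen and look slightly wider than their true length.

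U2 formed a domain in the middle of the locus, with both ends mostly U1. In steps of 50 kb, none of the first 6 steps had more than 32.8% U2 in any segmentation. By contrast, the step from 141100001 to 141150000 was U2 over 99.6% in KO-GS, 99.6% in KO-NT, 100% in WT-GS and 99.6% in WT-NT. Of the 41 steps, 2 were at least 90% U2 in KO-GS, against 10 in KO-NT, 10 in WT-GS and 11 in WT-NT. The median step was 28.0% U2 in KO-GS, 61.6% in KO-NT, 60.4% in WT-GS and 69.2% in WT-NT. Steps without any U2 numbered 10 in KO-GS, 8 in KO-NT, 5 in WT-GS and 5 in WT-NT.

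The gap between KO-GS and KO-NT was spread along the domain rather than held in 1 place. U2 was lower in GS in 27 of 41 steps, higher in 6 and equal in 8, with a median of -10.4 points. In 10 steps it was lower by 25 points or more, and in 0 steps it was higher by that much. The locus was chosen for its loss in KO, and steps outside it were not counted. Nothing is therefore read from these counts. The lowest step ran from 141600001 to 141650000, where U2 covered 2.4% in KO-GS against 78.8% in KO-NT. In WT the same step had 44% in GS and 65.2% in NT. The step from 142050001 to 142100000 came next, with 38.4% in KO-GS against 100% in KO-NT, and with 66.8% in WT-GS against 78.8% in WT-NT.

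In WT cells steps went both ways. U2 was lower in GS in 17 steps, higher in 18 and equal in 6, with 4 steps lower and 4 higher by 25 points or more. The choice of the locus also used the WT difference, so nothing is read from the contrast with KO. The highest step ran from 140850001 to 140900000, with 86.0% in WT-GS against 9.20% in WT-NT. In KO that step had 28.0% in GS and 43.6% in NT. The lowest WT step ran from 140600001 to 140650000, with 60.4% in WT-GS against 98.8% in WT-NT. It was also the highest step in KO, with 65.6% in KO-GS against 51.6% in KO-NT.

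**Figure D3:**
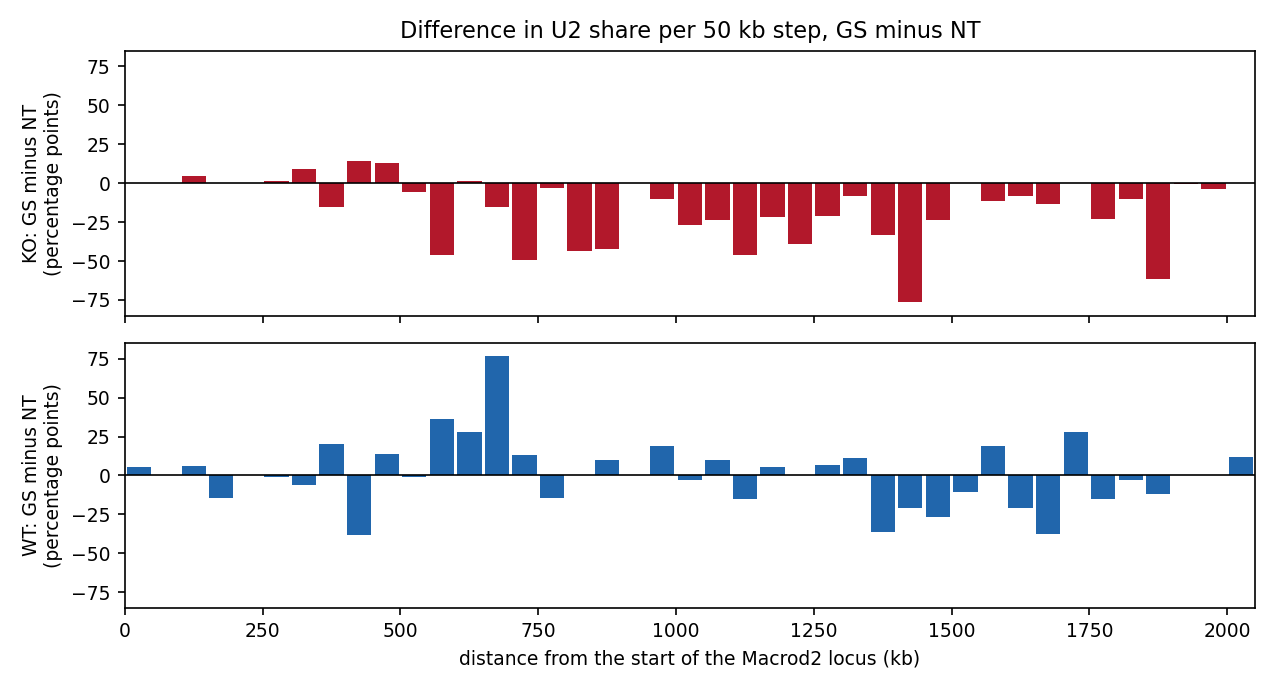
GS minus NT in the share of U2 (percentage points) for each of 41 steps of 50 kb along the locus, KO above and WT below on the same scale. In KO 27 bars lie below 0 and 6 above. In WT 17 lie below and 18 above, and 4 bars reach 25 points or more in each direction. The locus was chosen on GS minus NT in both genotypes.

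Split at the borders of the 1 Mb windows, most of the U2 lost in KO lay in the window that chose the locus. From 141000001 to 142000000, U2 covered 48.4% in KO-GS, 72.1% in KO-NT, 69.1% in WT-GS and 73.0% in WT-NT. That window held 239.6 kb of the U2 lost in KO, or 63.1% of the loss. The spans before and after it held 102 and 38.4 kb of the loss. That window was also the longest span (1000 kb, against 800 and 250 kb) and the richest in U2 in KO-NT. No concentration of the loss is therefore read from its 63.1%. Before that window, from 140200001 to 141000000, the U2 shares were 30.6% in KO-GS, 36.4% in KO-NT, 49.2% in WT-GS and 41.5% in WT-NT. After it, from 142000001 to 142250000, they were 8.16% in KO-GS, 23.4% in KO-NT, 20.0% in WT-GS and 20.6% in WT-NT. The KO difference was negative in all 3 spans, at -5.75, -23.6 and -15.3 points in map order. In WT it was 7.70, -3.90 and -0.640 points, so the net of 1.02 over the locus came from the first span, and in the other 2 spans WT had the same sign as KO.

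Counted bin by bin, KO cells lost U2 and gained little, whereas WT cells lost and gained similar amounts. Of the 5351 bins that were U2 in KO-NT, 1900 (35.5%, 380.0 kb) were not U2 in KO-GS. Over the genome 22.8% of such bins were called lost in this comparison, from which nothing is read since it chose the locus. Gains in KO came to 298 bins (59.6 kb), or 6.08% of the bins that were not U2 in KO-NT, against 5.10% over the genome. In WT 868 of 5567 U2 bins were lost (15.6%, 173.6 kb), against 18.0% over the genome. WT cells gained 973 bins (194.6 kb), or 20.8% of the bins that were not U2 in WT-NT, against 4.71% over the genome. The small net difference in WT thus covered bins that went both ways. Altogether 21.9% of the bins of the locus differed in state between KO-GS and KO-NT and 18.1% between WT-GS and WT-NT, against 11.2 and 9.54% over the genome.

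The U2 that KO cells lost became U1. Of the 1900 bins 1895 were U1 in KO-GS and 5 were U4, and none were U3. Gains in KO came from U1 in 297 of 298 bins. In WT 864 of the 868 lost bins were U1 in GS, and 967 of the 973 gained bins were U1 in NT.

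Between genotypes, the locus differed in GS and less in NT. In GS 2168 of the 5672 bins that were U2 in WT-GS were not U2 in KO-GS (38.2%), against 26.6% over the genome, and 245 of the bins that were not U2 in WT-GS were U2 in KO-GS (5.35%), against 2.98%. In NT 929 of the 5567 bins that were U2 in WT-NT were not U2 in KO-NT (16.7%), below the 28.6% over the genome. The reverse case held for 713 bins in NT (15.2%), against 3.05% over the genome. Bins of any differing state made up 23.7% of the locus between KO-GS and WT-GS and 16.4% between KO-NT and WT-NT, against 10.1 and 11.4% over the genome. These comparisons share KO-GS or KO-NT with the one that chose the locus.

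Over all 4 segmentations, 6475 bins (63.2% of the locus) kept a single state, against 81.4% of the genome. U1 in all 4 made up 664.2 kb and U2 in all 4 made up 630.4 kb. The next most frequent combination was U1 in KO-GS with U2 in the other 3 segmentations, at 1083 bins or 216.6 kb. It took 10.6% of the locus and 1.22% of the genome, an excess that the choice of the locus favoured and from which nothing is read. U1 in KO-NT with U2 in the other 3 took 133 bins, or 1.298% of the locus against 1.60% of the genome. The like combination took 128 bins for WT-GS (1.25% against 0.299%) and 169 for WT-NT (1.65% against 0.403%). U2 in 1 segmentation with U1 in the other 3 took 57 bins for KO-GS, at 0.556% of the locus close to the 0.573% of the genome. It took 302 bins for KO-NT (2.95% of the locus against 0.707% of the genome), 491 for WT-GS (4.79% against 1.38%) and 409 for WT-NT (3.99% against 1.21%). U2 was called at least once in 1380.2 kb, or 67.3% of the locus against 25.6% of the genome. More bins of the locus could therefore differ between U1 and U2, which bears on all the contrasts above.

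Of the 1900 bins that were U2 in KO-NT and not in KO-GS, 1087 (57.2%) were U2 in both WT segmentations, against 40.0% of such bins over the genome. A further 240 (12.6%) were U2 in WT-GS alone, 270 (14.2%) in WT-NT alone and 303 (15.9%) in neither, against 17.9, 15.6 and 26.4% over the genome. The U2 of KO-GS overlapped that of KO-NT over 690.2 kb, which was 92.1% of the U2 in KO-GS and 64.5% of that in KO-NT, against 74.9 and 77.2% over the genome. Its overlap with WT-GS was 93.5% of KO-GS and 61.8% of WT-GS, against 85.9 and 73.4% over the genome. Its overlap with WT-NT was 92.6% of KO-GS and 62.4% of WT-NT, against 85.3 and 73.8%. The shared U2 of WT-GS and WT-NT was 82.8% of WT-GS and 84.4% of WT-NT, close to the genome's 80.9 and 82.0%. The locus was chosen for loss of U2 in KO with little change in WT. Nothing is therefore read from these contrasts with the genome.

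In the locus U2 lay in 44 segments with a median of 8.6 kb in KO-GS, 30 with a median of 15.9 kb in KO-NT, 41 with a median of 13.8 kb in WT-GS and 38 with a median of 17.5 kb in WT-NT. Segments of at least 50 kb numbered 4 in KO-GS, 8 in KO-NT, 6 in WT-GS and 9 in WT-NT. They held 252.8 kb in KO-GS, 819.0 kb in KO-NT, 611.4 kb in WT-GS and 742.0 kb in WT-NT. Over the genome the median U2 segment was 2.6 kb in KO-GS, 3.20 kb in KO-NT, 2.80 kb in WT-GS and 2.6 kb in WT-NT, so that segments of the locus were long in all 4. Segments of at least 50 kb were also fewest in KO-GS over the genome, with 748 of 79590 in KO-GS, 985 of 59914 in KO-NT, 1105 of 81325 in WT-GS and 1003 of 83917 in WT-NT. KO-NT had the fewest U2 segments both in the locus and over the genome.

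The longest U2 segment of KO-GS spanned 68.8 kb, from 141818201 to 141887000. In KO-NT the longest spanned 222.4 kb, from 141138201 to 141360600, and a single U4 bin parted it from the next, of 167.0 kb, which began at 140971001. The longest was 230.6 kb in WT-GS and 140 kb in WT-NT. The longest U1 segment was 172.4 kb in KO-GS, 187.2 kb in KO-NT, 134.0 kb in WT-GS and 138.0 kb in WT-NT.

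**Figure D4:**
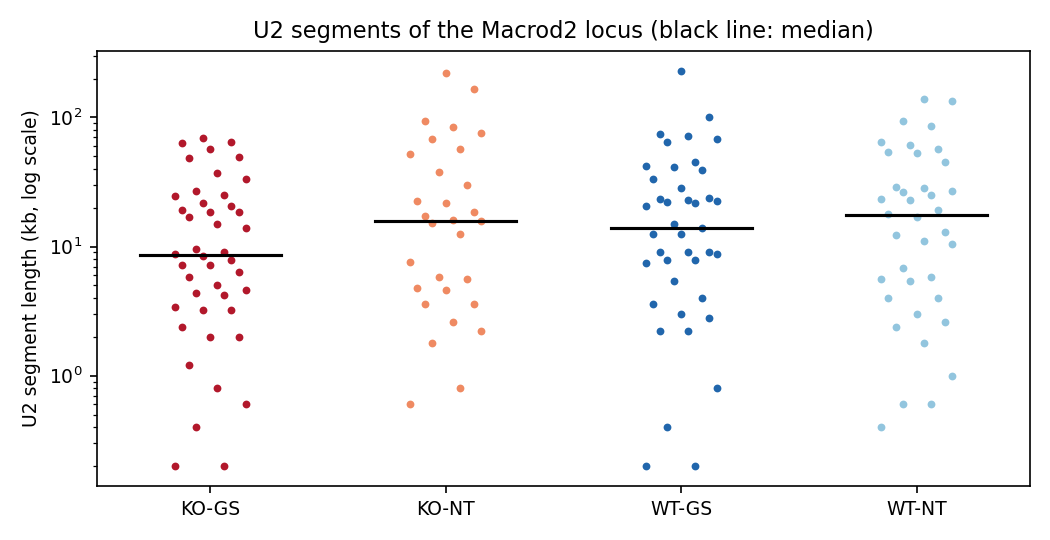
Length of each U2 segment of the locus (points, kb, log axis) in the 4 segmentations, with the median as a black line. The longest segment of KO-GS reaches 68.8 kb, below the longest of KO-NT (222.4 kb), WT-GS (230.6 kb) and WT-NT (140 kb), and its median of 8.6 kb is the lowest.

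Segments were opened from within as well as trimmed at their borders. Of the 380.0 kb of U2 lost in KO, 183.4 kb (48.3%) lay inside a KO-NT segment, in 19 stretches with U2 kept on both sides. A further 151.6 kb in 21 stretches adjoined 1 border of the segment, and 45 kb belonged to 10 segments that lost all their U2. Of the 30 KO-NT segments, 10 were left in more than 1 piece and 3 were untouched. In WT 61.4 kb (35.4%) of the lost U2 lay inside a WT-NT segment, 66.8 kb adjoined 1 border, and 45.4 kb came from 6 segments lost whole. Of the 38 WT-NT segments 16 were untouched. KO lost more U2 (380.0 kb) than WT (173.6 kb), and the KO loss chose the locus. Segments elsewhere in the genome were not counted in this way, so nothing is read from the contrast between genotypes.

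Changed segments, meaning runs of bins with the same change of state, were short. Between KO-GS and KO-NT there were 82, of which 47 went from U2 in NT to U1 in GS, with a median of 5.8 kb, and 19 went from U1 to U2, with a median of 2.00 kb. Between WT-GS and WT-NT there were 87, of which 32 went from U2 to U1 (median 4.10 kb) and 39 from U1 to U2 (median 3.6 kb). Segments of at least 10 kb held 236.0 kb of the change from U2 to U1 in KO and 86.0 kb of it in WT. The KO values describe the loss that chose the locus, so nothing is read from this contrast either.

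The longest changed segments of KO lay in the middle of the U2 domain. The longest ran from 141294201 to 141319600 (25.4 kb), the next from 141069801 to 141089800 (20.0 kb) and the one after it from 141423201 to 141442600 (19.4 kb). Each went from U2 in KO-NT to U1 in KO-GS. The 25.4 kb segment was U2 over 70.1% in WT-GS and 81.1% in WT-NT, and the 20.0 kb segment over 100% in WT-GS and 76.0% in WT-NT. The 19.4 kb segment was U2 throughout in WT-GS and WT-NT. In WT the longest was a gain of 31.8 kb from 140871401 to 140903200, which was U2 in WT-GS and U1 in WT-NT. It was 20.8% U2 in KO-GS and 66.0% in KO-NT. The longest losses in WT ran from 141579801 to 141604800 (25 kb) and from 140627801 to 140643000 (15.2 kb). The first of these had no U2 in KO-GS and 46.4% in KO-NT, and the other had 59.2% in KO-GS and 3.95% in KO-NT.

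The longest differences between genotypes in GS were 3 segments that were U2 in WT-GS and U1 in KO-GS, from 140894801 to 140921800 (27 kb), from 140859401 to 140880600 (21.2 kb) and again from 141069801 to 141089800. In NT the longest was U2 in KO-NT and U1 in WT-NT, from 140871401 to 140892400 (21.0 kb). The next ones were U1 in KO-NT and U2 in WT-NT, from 140952201 to 140971000 (18.8 kb) and from 140625201 to 140640000 (14.8 kb).

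U3 was called in the left part of the locus, with none beyond 140513400. In KO-NT a U3 segment of 6.80 kb ran from 140215601 to 140222400. Within it, the bins from 140221601 to 140222000 were U3 in all 4 segmentations, as segments of 0.4 kb in KO-GS, 0.6 kb in WT-GS and 1.00 kb in WT-NT. The sequence from 140512601 to 140513000 was U3 in KO-GS and KO-NT, U4 in WT-GS and U1 in WT-NT. U4 came in 8 segments in KO-GS, 7 in KO-NT, 8 in WT-GS and 8 in WT-NT, none longer than 0.6 kb. The U4 bin at 141138001, which broke the U2 domain of KO-NT, was U4 in KO-GS and WT-NT too and U2 in WT-GS.

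Among the 2644 windows of 1 Mb in the genome, the window from 141000001 had the lowest GS minus NT for U2 in KO, as the choice required, at -23.6 points. The margin was small. The windows next in order lay on chromosome 5 from 12000001 (31.9% in KO-GS against 55.5% in KO-NT, -23.5 points), on chromosome 13 from 27000001 (25.9% in KO-GS against 48.8% in KO-NT, -22.9 points) and on chromosome 10 from 91000001 (21.3% in KO-GS against 42.1% in KO-NT, -20.8 points). In WT the difference was 4.76, 23.8 and -6.04 points in these 3 windows and -3.90 in that of Macrod2. Over all windows GS minus NT averaged 0.522 points in KO (SD over windows 4.82) and 0.248 in WT (SD 3.61), where the SD is the spread along the genome and no replicate error. The windows of the locus from 140000001 and 142000001 had -4.32 and -4.90 points in KO and 7.18 and -2.00 in WT.

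**Figure D5:**
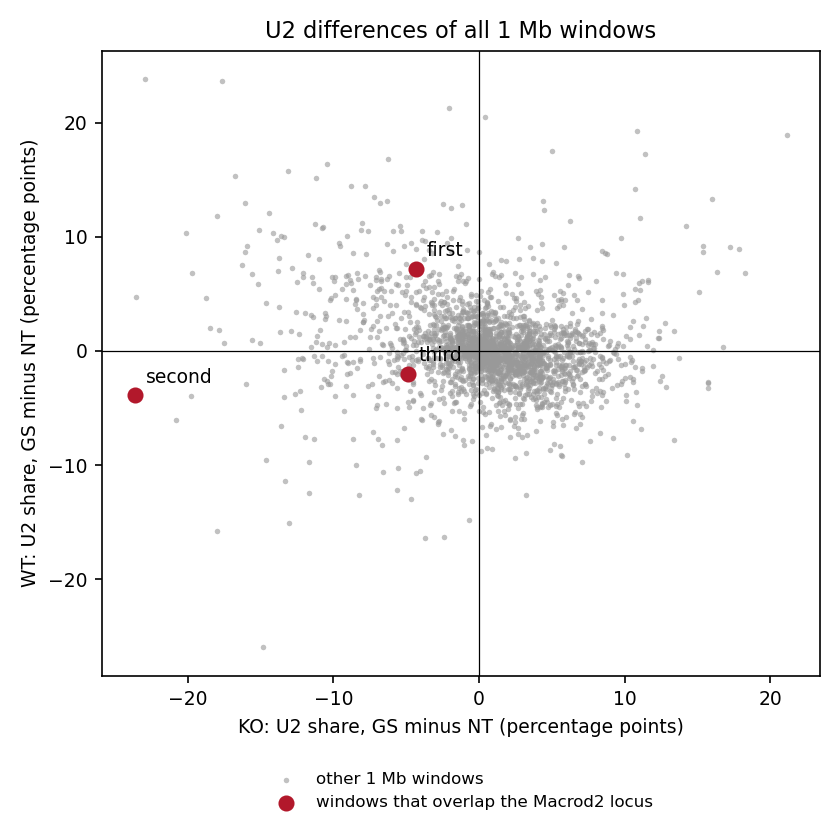
GS minus NT in the share of U2 (percentage points) in KO (x axis) and WT (y axis) for 2644 windows of 1 Mb. The 3 windows that overlap the Macrod2 locus are red and named in map order, and the second of them, at -23.6 points in KO and -3.90 in WT, lies at the left edge of the cloud by choice of the locus.

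In the level of U2 the window from 141000001 was among the richest of the genome. Its rank from the highest of 2644 was 154 in KO-GS, 30 in KO-NT, 55 in WT-GS and 31 in WT-NT. KO minus WT was -20.7 points in GS, the 19th lowest value, and -0.940 in NT, at rank 1687 from the lowest. Ranks that involve KO-GS or KO-NT were partly set by the choice of the window. By the distance over its 16 shares (4 states in 4 segmentations), the windows most like it lay on chromosome 8 from 105000001 (11.7 points), chromosome 4 from 13000001 (16.9 points) and chromosome 10 from 97000001 (17.2 points). The first of these had 51.2% U2 in KO-GS, 70.8% in KO-NT, 73.9% in WT-GS and 67.1% in WT-NT.

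A 1 Mb window moved along the locus in steps of 10 kb had its lowest GS minus NT in KO from 140720001 to 141720000. There U2 covered 54.4% in KO-GS, 81.2% in KO-NT, 80.3% in WT-GS and 76.4% in WT-NT, so the difference in KO was -26.8 points. In all 106 positions it was negative in KO, and its smallest size was -9.42 points, from 140200001. The positions overlap each other within a span chosen for its loss in KO, so the shared sign is no sign of stability.

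SIRT7 had a single listed peak in the locus, in GS and not in NT. The GS list of 2671 peaks placed 1 here (0.0374%, Wilson 95% interval 0.00661 to 0.212%, counting error only). None of the 90 NT peaks lay here, which leaves room for a share of up to 3.33%. The density in GS was 0.488 peaks per Mb, against 0.803 on chromosome 2 and 1.01 over the genome. At the density of chromosome 2, a stretch of this length would hold 1.65 GS peaks and 0.0451 NT peaks. Of 87 stretches of 2.05 Mb along chromosome 2, 24 held no GS peak, 26 held 1 and 37 held more, so that a single peak was common.

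The peak ran from 141924415 to 141925411 (997 bp), with an authors' score of 649 that ranked 1122 of 2671 (median of the list 629). It lay in U2 in WT-GS, the cells and treatment of the list, and in U1 in KO-GS, KO-NT and WT-NT. U2 covered 55.3% of the locus in WT-GS, and U2 in WT-GS with U1 in the other segmentations covered 4.79%. The share of all GS peaks in such bins is not given here, so nothing is read from this 1 peak. The U2 segment around the peak in WT-GS spanned 9 kb, from 141918601 to 141927600. In the other segmentations the nearest U2 was 37.4 kb away in KO-GS, 26.0 kb in KO-NT and 23.6 kb in WT-NT. Over 10 kb to each side of the peak U2 covered 0% in KO-GS, 0% in KO-NT, 42.9% in WT-GS and 0% in WT-NT. Wider surroundings had another order. Over 50 kb to each side the shares were 17.4% in KO-GS, 33.1% in KO-NT, 39.0% in WT-GS and 42.2% in WT-NT, and over 100 kb they were 35.9% in KO-GS, 45% in KO-NT, 47.3% in WT-GS and 53.5% in WT-NT. The nearest bin whose state differed between GS and NT in KO was 26.0 kb away, so no changed segment of KO could hold the peak. In WT the peak lay in bins that were U1 in NT and U2 in GS. The neighbouring GS peaks lay 2163 kb before and 2531 kb after the locus. The nearest NT peaks on chromosome 2 lay at 60240545 and 178875948.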

How the data were processed

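Per the labels, 28 libraries (20 ChIP, 8 input) were made. Among the tools in the submitters' processing notes are deepTools 2.4.2, MACS 1.4.2, SAMtools 0.1.19, Bowtie, Trimmomatic 0.36 and FastQC 0.11.3, with no roles, and the builds are mm9 and hg19. The authors deposited 4 segmentations (state per segment, ends in multiples of 200 bp) and 2 SIRT7 peak lists with a score per peak, and no source used here says how either was made. Signal tracks were not analysed here. Read totals are unknown, so the depth behind each state and peak is too.

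Segments were expanded to bins of 200 bp and compared bin by bin (Python 3.11.15, numpy 2.4.6, scipy 1.17.1). Peaks needed 1 bp within the locus and took the state covering most bases. Coordinates are mm9, counted from 1. Named windows and segments followed a rule: the 3 longest changed segments per comparison, and the 3 windows next in loss and the 3 most alike. Macrodomain and other long genes were not located in mm9 and are not reported. The locus, lists and rules were chosen with earlier results of these data known. Pooled replicates allow no test and no leaving out of a replicate. The scripts were checked on simulated segmentations.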

Additional observations from a re-analysis of the deposited data

Results flagged for a closer look

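The differences in U2 between GS and NT over the Macrod2 locus had different signs in KO and WT. GS minus NT was -15.6 percentage points in KO (36.6% in GS, 52.2% in NT) and 1.02 in WT (55.3% in GS, 54.3% in NT). The locus was chosen on these values, so they support nothing, and the difference between genotypes was not tested, since each condition has 1 pooled segmentation. The WT value is a net of 7.70, -3.90 and -0.640 points over the 3 spans of the locus, and WT had the same sign as KO in the window on which the locus was chosen.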

How the results depend on the processing

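GS minus NT in U2 was -17.2 points in KO with the borders of the locus moved in by 100 kb and -14.1 with them moved out by 100 kb, against -15.6. KO minus WT in GS was -20.2 points with the borders moved in, against -18.8. The first of these differences chose the locus and the other shares KO-GS with it, so their sign under these settings is no sign of stability. With 1 kb bins, segments under 1 kb joined or marked sequence in place of U2, they ranged from -15.98 to -15.6 and from -18.8 to -18.75 points. Over all 5 alternatives GS minus NT in WT ranged from 0.670 to 1.01 and KO minus WT in NT from -3.16 to -1.80 points. The SIRT7 counts stayed at 1 in GS and 0 in NT with borders moved and with the upper 50% of peaks by score, which the rank of the GS peak, the empty NT count and the distance of other peaks fixed in advance. The NT settings were added after seeing the data. With the grid of windows moved by 500 kb, a choice made after seeing the data, the lowest value in KO was -23.4 points, on chromosome 12 from 90500001, and the windows of the locus, from 140500001 and 141500001, had -18.6 and -14.2 points (ranks 9 and 37 of 2635). The rank of the locus thus depends on where windows begin. No paired analysis was possible because each segmentation and list pools its replicates. Depth is unknown, and so is the counting error behind each state.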
